A study of Mus musculus with 8 samples.

Results

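The 10 uterine gland genes described here are *Foxa2*, *Spink1*, *Prss28*, *Prss29*, *Cxcl15*, *Ttr*, *Calca*, *Stc1*, *Spp1* and *Wfdc3*. They were chosen as the regulator and the secreted products of the endometrial glands, and each was found in the count table by matching its Ensembl identifier, without the version, to its mouse symbol. All 10 were among the 52325 identifiers of the table, and 5 of the 10 were among the 18174 genes with enough counts to be tested. RNA was sequenced from laser-captured endometrium of 4 WT and 4 Thra1PV/+ mice. In the Thra1PV/+ mice 1 *Thra* allele bears the PV mutation, a frameshift that turns the thyroid hormone receptor TRα1 into a dominant negative form in every cell that expresses the gene, and all mice were staged to metestrus. The age of these mice and their strain background were not given in the sources used here. Frozen sections of the endometrium hold luminal epithelium, glands and stroma together, so that in these bulk libraries fewer gland cells and less RNA per gland cell cannot be told apart.

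Endometrial glands are tubes of simple secretory epithelium that grow from the uterine lumen into the stroma after birth, and their secretions are needed for implantation and early pregnancy. The forkhead transcription factor FOXA2 is made in the glands and not in the luminal epithelium of the adult mouse uterus, and glands fail to form or to work when it is lost. The secreted products named here answer in different ways to estrogen, progesterone and the embryo, so that their levels are known to move through the cycle and early pregnancy.

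The 8 libraries held between 48791883 and 59819099 estimated counts. Levels are given as CPM, read counts scaled to library size, after TMM normalization, and a library with 0 counts of a gene could hold up to 3 counts by counting error alone, which is 0.0525 to 0.0628 CPM. *Thra* itself had 80.1 ± 34.2 CPM (SD, n = 4) in Thra1PV/+ and 78.0 ± 33.7 CPM (SD, n = 4) in WT endometrium, and its counts pool the transcripts of both alleles. A call required at least a 2-fold difference and an adjusted p no larger than 0.1 in edgeR's quasi-likelihood test with Benjamini-Hochberg adjustment. Markers of simple epithelium summed to between 2758 and 6656 CPM in Thra1PV/+ and between 2601 and 7551 CPM in WT libraries, and 0 of the 10 passed the test. Markers of squamous epithelium differed, with 8 of 10 called higher in Thra1PV/+, where they summed to between 3011 and 4957 CPM against 46.5 to 173 CPM in WT. Smooth muscle markers stood apart in WT library 1, at 12922 CPM, beside 568 to 1132 CPM in the other WT and 145 to 675 CPM in the Thra1PV/+ libraries, and 0 of 7 were called, while 7 of 7 were lower in Thra1PV/+ at an unadjusted p under 0.05. In that test *Foxj1* of ciliated epithelium was the only call in the other marker lists, at 2.94 ± 0.595 CPM in Thra1PV/+ and 17.0 ± 4.66 CPM in WT endometrium (SD, n = 4), and DESeq2 called *Ovgp1*, *Dcn*, *S100a9* and *Csf3r* beside it. Of the 8 tested ciliated markers, *Foxj1* was also the only 1 with an unadjusted p under 0.05 in edgeR's quasi-likelihood test. Their median log2 fold change was -0.48, and *Dnah11* went the other way, at 0.64 (SE 0.63). The 9 stroma markers summed to between 436 and 5287 CPM in Thra1PV/+ and between 1554 and 5220 CPM in WT endometrium.

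Among the defining gland markers, *Foxa2* and *Cxcl15* were detected in every library, while *Spink1*, *Prss28*, *Prss29* and *Ttr* were at or near 0 in most. The authors' TPM values, which account for transcript length, allow the genes to be ordered by level over the 8 libraries. *Spp1* came first with a median of 47.8 TPM (range 26.6 to 184), followed by *Cxcl15* with 26.9 TPM (0.199 to 83.6) and *Foxa2* with 14.4 TPM (8.71 to 26.7). *Stc1* had a median of 3.28 TPM (1.14 to 6.997) and *Wfdc3* 1.43 TPM (0.726 to 9.67). *Calca* had 0.124 TPM (0 to 14.1) and *Ttr* 0.0708 TPM (0 to 2.46), and the median of *Spink1*, *Prss28* and *Prss29* was 0 TPM. The ranges of *Foxa2* and *Stc1* did not overlap, whereas those of every other pair of neighbours in this order did.

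**Figure D1:**
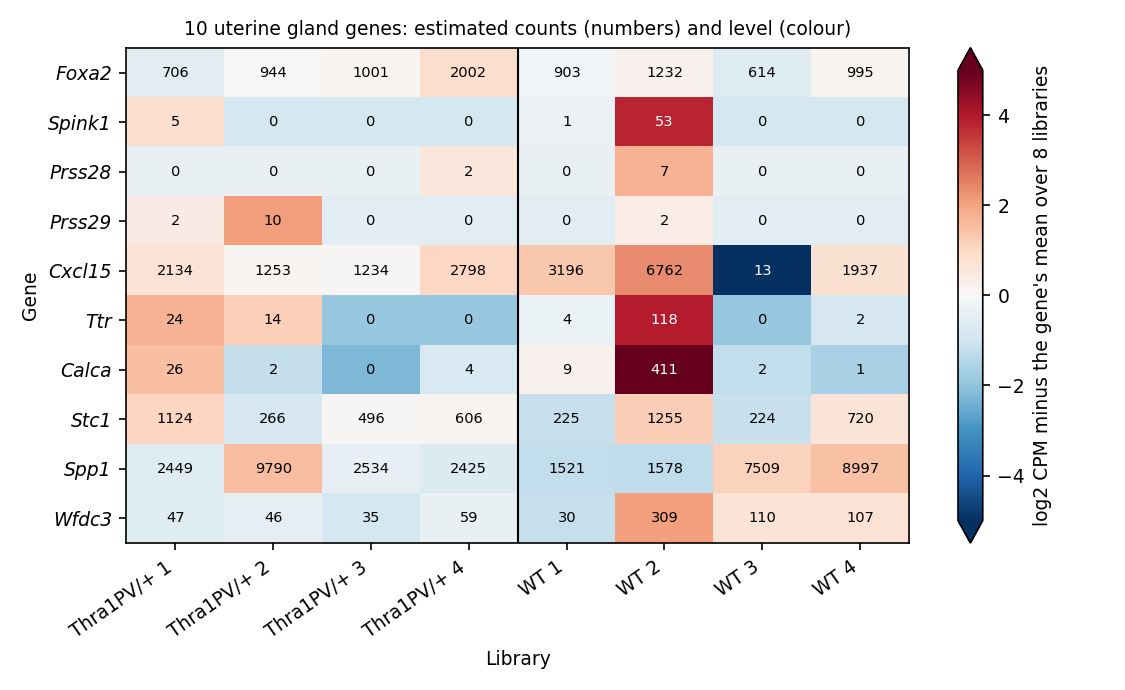
Estimated counts of the 10 uterine gland genes (rows) in the 8 libraries (columns), with each box coloured by its log2 CPM minus the mean of that gene over the libraries. WT library 2 holds the highest level of 7 of the 10 genes, *Calca* with 411 counts among them, and WT library 3 holds 13 counts of *Cxcl15*.

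None of the 10 gland genes was called between the genotypes. Of all tested genes, 0.99% were called, 0.924% higher and 0.066% lower in Thra1PV/+, a share at which a list of 5 tested genes would mostly hold no call. At an unadjusted p under 0.05, 1 of the 5, *Wfdc3*, passed and was lower in Thra1PV/+, against 9.77% of all tested genes at that limit, 5.05% higher and 4.72% lower. DESeq2 called 0 of the 6 gland genes for which it gave an adjusted p, and 3.58% of the genes it tested. For each of the 10 genes the levels in the 2 genotypes overlapped, whereas 6.04% of all tested genes showed no overlap. Exact permutation tests of single genes (two-sided, 70 arrangements, smallest possible p = 0.0286) gave p between 0.143 and 1 over the 10 genes. *Spink1*, *Prss28* and *Prss29* had 0 counts in most libraries. Such ties put that smallest p out of their reach, so their tests could not have found a difference.

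**Figure D2:**
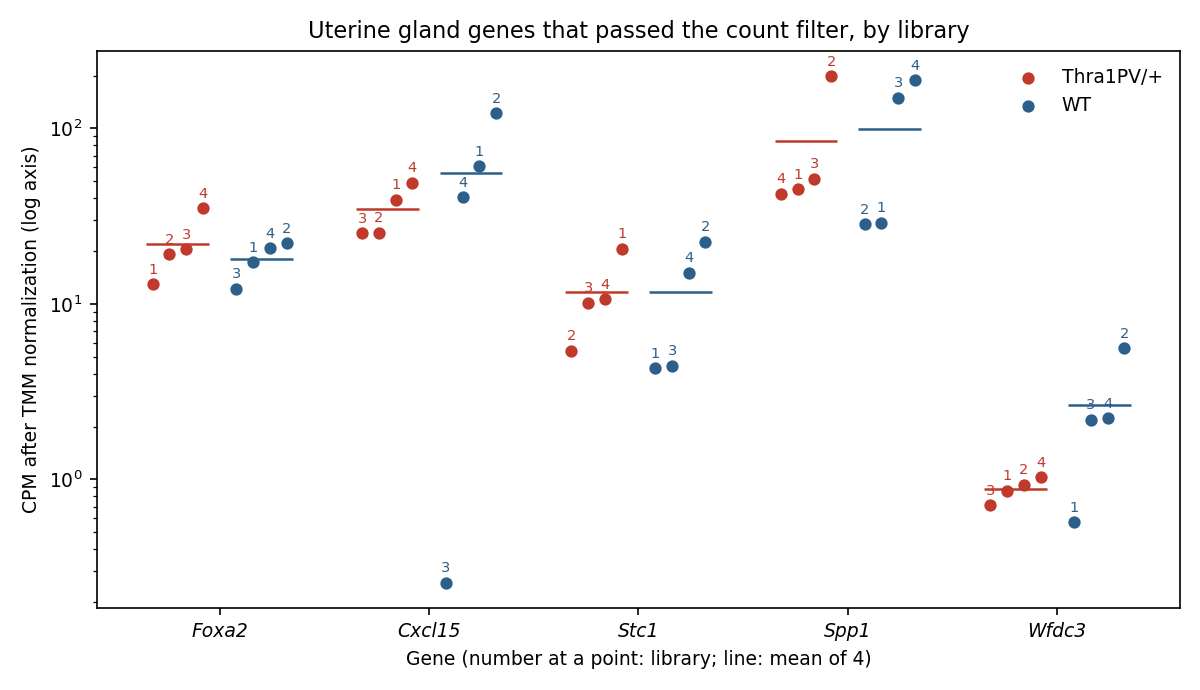
CPM of the 5 gland genes that passed the count filter (log axis), with a point for each library, its number above it and a line at the mean of 4. The genotypes overlap for each gene, *Cxcl15* in WT library 3 lies at 0.259 CPM, and *Spp1* splits both genotypes into high and low libraries.

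*Foxa2* (ENSMUSG00000037025.11, chromosome 2 of GRCm38, 148042877 to 148046969, minus strand), the regulator of gland formation and function, was detected in both genotypes, at levels that overlapped. It had 13.0, 19.2, 20.5 and 35.1 CPM in Thra1PV/+ libraries 1 to 4 and 17.2, 22.2, 12.2 and 20.8 CPM in WT libraries 1 to 4. Thra1PV/+ library 4 was the highest and WT library 3 the lowest, and the other libraries of both genotypes lay between them. The means were 21.9 ± 9.36 CPM (SD, n = 4) in Thra1PV/+ and 18.1 ± 4.47 CPM (SD, n = 4) in WT endometrium. The log2 fold change was 0.27 ± 0.32 (SE, 95% interval -0.46 to 1.01, edgeR's quasi-likelihood test, adjusted p = 0.845). It came to -0.05 without Thra1PV/+ library 4. The interval over all 8 libraries leaves room for a rise of about 2-fold in Thra1PV/+ and for a smaller fall. Set against the simple epithelium markers, *Foxa2* had 4.48 ± 1.87 CPM per 1000 CPM of them in Thra1PV/+ and 4.44 ± 2.51 in WT endometrium (SD, n = 4). Squamous markers were higher in Thra1PV/+ as given above, and the part of squamous cells in the simple epithelium markers was not tested.

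The genes that direct gland development, such as the Wnt ligands, their receptors and the transcription factors *Sox17* and *Hoxa10*, gave 0 called of 20 tested, with 1 higher and 0 lower in Thra1PV/+ at an unadjusted p under 0.05. Their median log2 fold change was -0.16, beside -0.05 over all tested genes. The member with the smallest p was *Foxa1*, a relative of *Foxa2* that shares much of its DNA binding. It had 3.01 to 15.7 CPM in the Thra1PV/+ and 0.0361 to 2.76 CPM in the WT libraries, which did not overlap, and its log2 fold change was 2.93 ± 1.05 (SE, edgeR's quasi-likelihood test, adjusted p = 0.396). DESeq2 called *Foxa1*, at an adjusted p of 0.0513. *Foxa2* and *Foxa1* share 8 of the 2365 31-base words of the *Foxa2* transcripts. *Ctnnb1*, the β-catenin of Wnt signalling and the most abundant of the list, had 870 ± 74.0 CPM in Thra1PV/+ and 1023 ± 362 CPM in WT endometrium (SD, n = 4), and its adjusted p was 0.834 in edgeR's quasi-likelihood test.

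**Figure D3:**
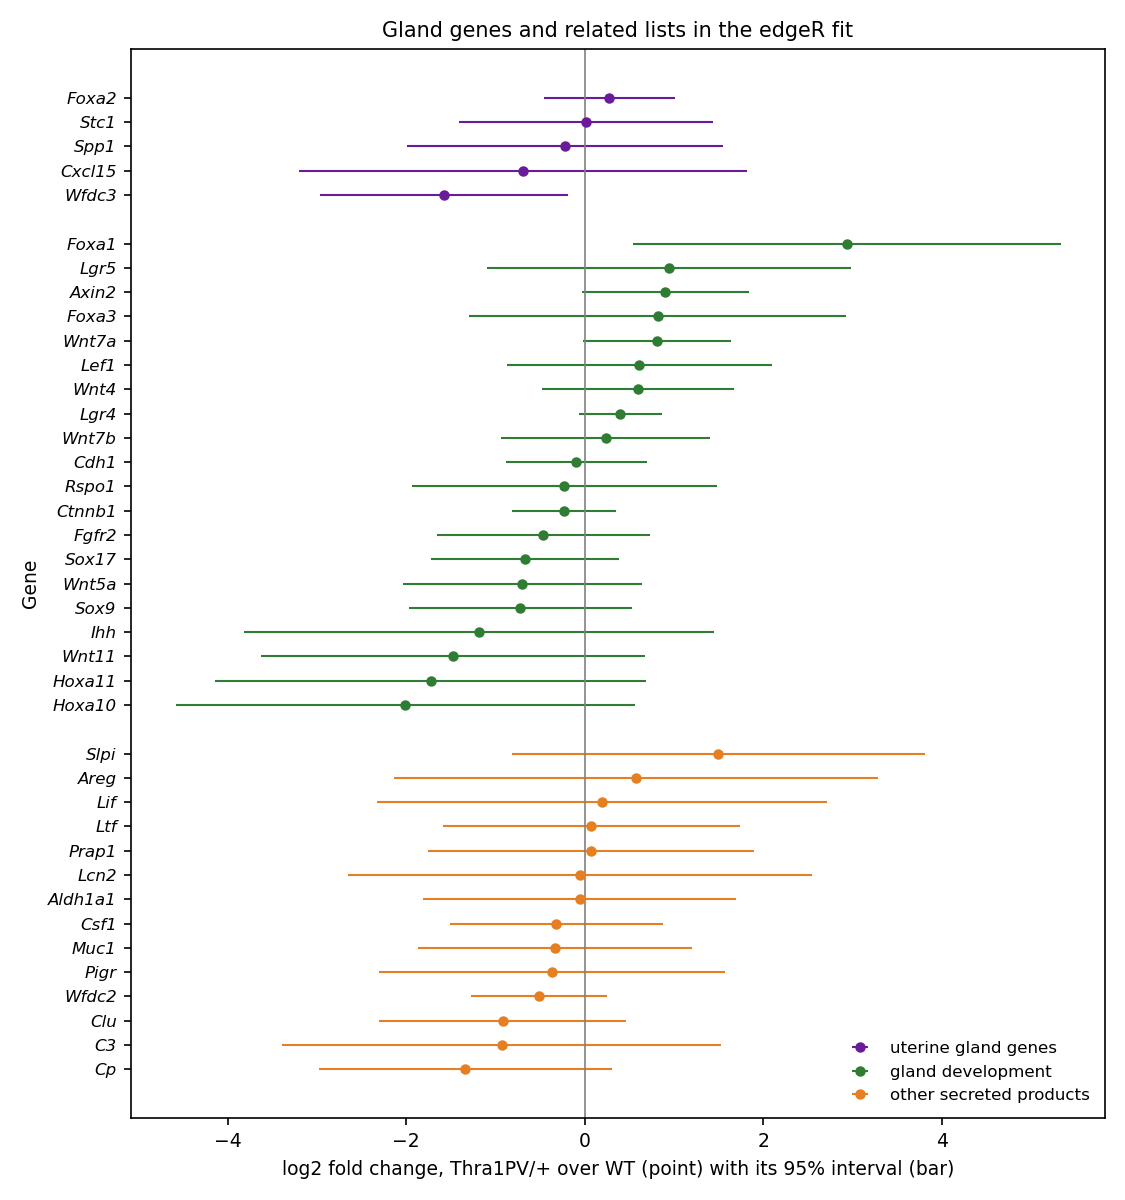
Log2 fold changes of Thra1PV/+ over WT endometrium (points) with their 95% intervals (bars). Shown are the 5 tested gland genes, 20 genes of gland development and 14 genes listed as other secreted products of the uterine epithelium. The intervals of *Wfdc3* and *Foxa1* lie to either side of 0 without touching it, and all others shown include 0.

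*Cxcl15* (ENSMUSG00000029375.6, chromosome 5, 90794534 to 90803067, plus strand) encodes a chemokine that the uterine glands and the lung secrete. It had 39.2, 25.4, 25.2 and 49.0 CPM in Thra1PV/+ libraries 1 to 4. In WT libraries 1 to 4 it had 61.0, 122, 0.259 and 40.5 CPM. The WT libraries thus held both the highest and the lowest level, and all Thra1PV/+ libraries lay between WT libraries 3 and 1. In WT library 3 only 13 counts were found. There *Foxa2* was at its lowest, with 614 counts or 12.2 CPM, and the simple epithelium markers were at their highest, 7551 CPM. The part of gland content in the level of *Cxcl15* was not tested. The means were 34.7 ± 11.6 CPM in Thra1PV/+ and 56.0 ± 50.8 CPM in WT endometrium (SD, n = 4), a log2 fold change of -0.69 ± 1.09 (SE, 95% interval -3.20 to 1.82, edgeR's quasi-likelihood test, adjusted p = 0.896). The value ran from -1.09 without WT library 3, with an unadjusted p of 0.0301 and an adjusted p of 0.384 in the same test, to 0.06 without WT library 2. Of the chemokines and receptors of the CXCR2 axis, through which neutrophils are drawn into tissue, 0 of 7 tested were called, 3 had an unadjusted p under 0.05 and were higher in Thra1PV/+, and the median log2 fold change was 2.08. DESeq2 called *Cxcl3* (adjusted p = 0.0111) and *Ppbp* (adjusted p = 3.06e-05). Without Thra1PV/+ library 4, edgeR's quasi-likelihood test called *Ppbp* (adjusted p = 0.0913), among 127 of 18544 tested genes. Neutrophil markers summed to between 65.2 and 673 CPM in Thra1PV/+ and between 6.37 and 113 CPM in WT libraries, which overlap, with 0 of 5 called, 3 higher in Thra1PV/+ at an unadjusted p under 0.05 and the defining marker *Ly6g* at 0.0763 to 2.13 CPM, and their part in these values was not tested.

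*Calca* (ENSMUSG00000030669.13, chromosome 7, 114631478 to 114636357, minus strand) encodes calcitonin and, by alternative splicing, a neuropeptide, and uterine glands are known to make calcitonin under progesterone. It had 26, 2, 0 and 4 counts in Thra1PV/+ libraries 1 to 4 and 9, 411, 2 and 1 counts in WT libraries 1 to 4. WT library 2 therefore held 97.2% of all WT counts, at 43.2 times the CPM of the next WT library, and the other WT libraries overlapped with the Thra1PV/+ libraries. The gene did not pass the count filter. With all genes fitted, its adjusted p was 0.657 in edgeR's quasi-likelihood test. Of its family and their receptors, 0 of 7 tested were called and 1 had an unadjusted p under 0.05. The relative *Calcb*, which shares 33 of the 1678 31-base words of *Calca*, had 0.298 to 5.03 CPM in Thra1PV/+ and 0 to 0.293 CPM in WT libraries, with an adjusted p of 0.282 in the same test and of 0.00445 by DESeq2, which called it. WT library 2 held 6 counts of *Calcb*, so that its *Calca* counts were not matched by counts of the relative.

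*Ttr* (ENSMUSG00000061808.3, chromosome 18, 20665280 to 20674321, plus strand) encodes transthyretin, which carries thyroxine and, bound to the product of *Rbp4*, retinol. It had 24, 14, 0 and 0 counts in Thra1PV/+ libraries 1 to 4 and 4, 118, 0 and 2 counts in WT libraries 1 to 4. WT library 2 was again the highest, with 95.2% of the WT counts, and Thra1PV/+ libraries 1 and 2 came next. With all genes fitted the adjusted p was 0.763 in edgeR's quasi-likelihood test. *Rbp4* had 1.22 to 3.85 CPM in Thra1PV/+ and 5.20 to 31.1 CPM in WT libraries, which did not overlap, and a log2 fold change of -2.55 ± 0.58 (SE, edgeR's quasi-likelihood test, adjusted p = 0.146). *Rbp4* was called by DESeq2 (adjusted p = 6.95e-04). Without WT library 2, edgeR's quasi-likelihood test called *Rbp4* too (adjusted p = 0.0724), among 150 of 18506 tested genes. *Stra6*, the retinol uptake receptor for that carrier, had 73.2 to 240 CPM in Thra1PV/+ and 3.60 to 45.4 CPM in WT libraries, with a log2 fold change of 2.15 (SE 0.78) and an adjusted p of 0.404 in edgeR's quasi-likelihood test and of 0.0792 by DESeq2, which called it. Markers of pancreas and liver, organs that make much transthyretin or trypsin inhibitor, summed to at most 6.66 CPM in any library, most of it *Cela1* (1.80 to 5.99 CPM). The pancreatic marker *Cpb1*, with at most 31 counts and too few to test, had 0.560 CPM in WT library 2 and 0.496 CPM in Thra1PV/+ library 1. These were the highest libraries for *Ttr* and *Spink1* too, and *Cpb1* had at most 0.0382 CPM in the others. *Apoa2* was also highest in WT library 2, at 1.25 CPM. *Cela1* and *Alb* were highest in WT library 1, at 5.99 and 0.172 CPM, and *Prss1* and *Cpa1* had 0 counts in every library. The part of these markers in the levels of *Ttr* and *Spink1* was not tested.

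*Spink1* (ENSMUSG00000024503.2, chromosome 18, 43728082 to 43737557, minus strand) encodes a secreted inhibitor of trypsin-like proteases. It had 5, 0, 0 and 0 counts in Thra1PV/+ libraries 1 to 4 and 1, 53, 0 and 0 counts in WT libraries 1 to 4. All but 1 of the WT counts were in WT library 2, and 5 of the 8 libraries had 0. With all genes fitted the adjusted p was 0.665 in edgeR's quasi-likelihood test. Of the 10 members of the SPINK family, 3 were tested, 0 were called and 1 had an unadjusted p under 0.05. *Spink5*, the inhibitor of stratified epithelium, had 5.47 to 43.6 CPM in Thra1PV/+ and 0 to 1.83 CPM in WT libraries, a log2 fold change of 5.54 ± 1.43 (SE, edgeR's quasi-likelihood test, adjusted p = 0.215), while the squamous markers were higher as given above, and their part in it was not tested. *Spink5* was called by DESeq2 (adjusted p = 4.32e-04), as was *Spink4* (adjusted p = 0.0111). *Spink4* had at most 33 counts in a library and did not pass the count filter with all 8 libraries. Each library was left out in turn in edgeR's quasi-likelihood test, in 8 fits. Without WT library 3 it called *Spink5* (adjusted p = 0.0517), among 162 of 18659 tested genes. Without Thra1PV/+ library 1 it called *Spink4* (adjusted p = 0.0977), among 148 of 18568.

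*Prss28* (ENSMUSG00000024171.4, chromosome 17, 25308646 to 25311876, plus strand) and *Prss29* (ENSMUSG00000034039.7, chromosome 17, 25318654 to 25322684, plus strand) lie close together on the same strand and encode the implantation serine proteases that glands secrete around implantation. *Prss28* had 0, 0, 0 and 2 counts in Thra1PV/+ libraries 1 to 4 and 0, 7, 0 and 0 counts in WT libraries 1 to 4. *Prss29* had 2, 10, 0 and 0 counts in Thra1PV/+ libraries 1 to 4 and 0, 2, 0 and 0 counts in WT libraries 1 to 4. Both were close to the limit of detection in metestrus endometrium of either genotype, and a difference between the genotypes was not detectable at this depth. Reads of *Prss29* may be shared with the gene model AC122454.1, which holds 46 of its 1181 31-base words. Of 11 tryptase-like proteases, 5 were tested, 0 were called and 1 had an unadjusted p under 0.05. This was *Prss27*, which had 5.31 to 159 CPM in Thra1PV/+ and 0 to 1.21 CPM in WT libraries, a log2 fold change of 6.31 ± 1.42 (SE, edgeR's quasi-likelihood test, adjusted p = 0.141). DESeq2 called *Prss27*, at an adjusted p of 1.03e-05.

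*Wfdc3* (ENSMUSG00000076434.9, chromosome 2, 164731180 to 164745931, minus strand) encodes a small secreted protein with whey acidic protein domains, a fold shared with protease inhibitors. It had 47, 46, 35 and 59 counts in Thra1PV/+ libraries 1 to 4, or 0.863, 0.933, 0.715 and 1.03 CPM. In WT libraries 1 to 4 it had 30, 309, 110 and 107 counts, or 0.572, 5.58, 2.19 and 2.24 CPM. The Thra1PV/+ libraries lay close together, 3 of 4 WT libraries were above all of them, and WT library 1 was below all of them. The means were 0.886 ± 0.134 CPM in Thra1PV/+ and 2.64 ± 2.10 CPM in WT endometrium (SD, n = 4). The log2 fold change was -1.58 (SE 0.61, 95% interval -2.96 to -0.19), with an unadjusted p of 0.0305 and an adjusted p of 0.445 in edgeR's quasi-likelihood test, and the exact permutation test of this gene alone gave p = 0.143. It came to -0.88 without WT library 2 (adjusted p = 0.719) and to -1.86 without WT library 1 (adjusted p = 0.180), both by edgeR's quasi-likelihood test. Of 18 genes of the WFDC family, 11 were tested and 0 called, 1 was higher and 1 lower in Thra1PV/+ at an unadjusted p under 0.05, and the median log2 fold change was 0.21. *Wfdc16* had 0.0184 to 0.629 CPM in Thra1PV/+ and 0.668 to 9.05 CPM in WT libraries, a log2 fold change of -3.79 ± 1.05 (SE, edgeR's quasi-likelihood test, adjusted p = 0.263). DESeq2 called *Wfdc16* (adjusted p = 0.00311) and *Wfdc6a* (adjusted p = 0.0663), both lower in Thra1PV/+. *Wfdc6a* did not pass the count filter and had 0.649 and 1.57 CPM in WT libraries 1 and 2. In WT libraries 3 and 4 it had 0.0199 and 0.0209 CPM, within the 0 to 0.0551 CPM of the Thra1PV/+ libraries. *Wfdc2*, the most abundant of the family, had 615 ± 155 CPM in Thra1PV/+ and 879 ± 345 CPM in WT endometrium (SD, n = 4; adjusted p = 0.675 by edgeR's quasi-likelihood test).

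Upstream sequences are shown for *Cxcl15*, *Calca* and *Wfdc3*, since these are the genes with a window in the promoter table and more than 10 counts whose level in WT library 2 was more than 2 times that of any other WT library. Each run gives the 250 bases before the RefSeq start on the strand of the gene, 5′ to 3′, from GRCm38.p6. Capitals mark matches, on either strand, to the forkhead letters TGTTTAC, to their variant TATTTAC, to their further variant TGTTTGC, to TGTTCT or to AGGTCA. None of these matches overlap here. TGTTCT is a core of some steroid receptors, and AGGTCA is a core of the thyroid hormone receptor and of other nuclear receptors.
Cxcl15, chr5:90794284-90794533, plus strand: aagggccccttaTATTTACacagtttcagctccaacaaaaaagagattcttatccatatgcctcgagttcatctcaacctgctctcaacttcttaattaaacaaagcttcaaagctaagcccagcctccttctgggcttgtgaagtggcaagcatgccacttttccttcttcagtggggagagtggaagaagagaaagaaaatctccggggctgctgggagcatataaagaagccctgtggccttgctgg
Calca, chr7:114636358-114636607, minus strand: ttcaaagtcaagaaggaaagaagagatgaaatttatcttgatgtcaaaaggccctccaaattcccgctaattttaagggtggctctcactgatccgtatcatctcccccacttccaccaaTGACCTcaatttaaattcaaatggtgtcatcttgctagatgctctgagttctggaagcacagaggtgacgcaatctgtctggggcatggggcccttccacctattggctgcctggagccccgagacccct
Wfdc3, chr2:164743268-164743517, minus strand: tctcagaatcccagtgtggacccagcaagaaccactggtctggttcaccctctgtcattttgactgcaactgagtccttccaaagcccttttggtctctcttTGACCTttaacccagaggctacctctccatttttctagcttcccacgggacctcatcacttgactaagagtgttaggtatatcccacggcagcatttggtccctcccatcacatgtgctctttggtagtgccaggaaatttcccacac
*Cxcl15* held a forkhead match that begins 238 bases before the start, and it was the only one of the 7 gland genes with a window in the table that held one. *Calca* and *Wfdc3* held 1 match to AGGTCA each, on the opposite strand, which begins 130 and 148 bases before the start. Of 32851 windows of this length, 9.73% held a forkhead match, 16.1% a match to TGTTCT and 14.02% a match to AGGTCA. None of these 3 windows held a match to TGTTCT. The RefSeq start of *Wfdc3* lies inside the longer GENCODE span given above. A match describes letters in the window and not a bound site.

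*Stc1* (ENSMUSG00000014813.9, chromosome 14, 69029238 to 69041804, plus strand) encodes stanniocalcin, a secreted glycoprotein hormone. It had 20.6, 5.40, 10.1 and 10.6 CPM in Thra1PV/+ libraries 1 to 4 and 4.29, 22.7, 4.46 and 15.1 CPM in WT libraries 1 to 4. Each genotype held high and low libraries, and the 2 groups covered nearly the same range. The means were 11.7 ± 6.41 CPM in Thra1PV/+ and 11.6 ± 8.92 CPM in WT endometrium (SD, n = 4), a log2 fold change of 0.01 ± 0.62 (SE, 95% interval -1.41 to 1.43, edgeR's quasi-likelihood test, adjusted p = 0.998). The interval leaves room for a change of more than 2-fold in either direction. Of 6 tested genes of the stanniocalcin and insulin-like growth factor axis, on which the protein acts by blocking the protease PAPP-A, 0 were called and 0 had an unadjusted p under 0.05. *Igf1* had 71.2 ± 63.0 CPM in Thra1PV/+ and 164 ± 155 CPM in WT endometrium (SD, n = 4; adjusted p = 0.741 in the same test).

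*Spp1* (ENSMUSG00000029304.14, chromosome 5, 104435118 to 104441050, plus strand) encodes osteopontin, a secreted glycoprotein that binds integrins and CD44 and that macrophages make as well as gland epithelium. It had 45.0, 199, 51.8 and 42.5 CPM in Thra1PV/+ libraries 1 to 4 and 29.0, 28.5, 149 and 188 CPM in WT libraries 1 to 4. Thra1PV/+ library 2 and WT libraries 3 and 4 were high, and the other 5 libraries were low, across both genotypes. The means were 84.5 ± 76.2 CPM in Thra1PV/+ and 98.8 ± 82.4 CPM in WT endometrium (SD, n = 4), a log2 fold change of -0.23 ± 0.77 (SE, 95% interval -1.996 to 1.54, edgeR's quasi-likelihood test, adjusted p = 0.959). It ran from -1.09 without Thra1PV/+ library 2 to 0.29 without WT library 4. Macrophage markers summed to 222 CPM in Thra1PV/+ library 2 and to 400 and 466 CPM in WT libraries 3 and 4, beside 288 to 827 CPM in the 5 libraries with low *Spp1*. The order of the libraries differed among these markers. *Cd68* was highest in WT library 3, at 128 CPM, and lowest in WT library 2, at 18.5 CPM. *C1qa*, the most abundant of them, and *Csf1r* were highest in Thra1PV/+ library 1, at 195 and 115 CPM. Both were lowest in Thra1PV/+ library 2, at 48.4 and 21.4 CPM. The part of the macrophage markers in the level of *Spp1* was not tested. The predicted gene Gm42793 holds 250 of the 1753 31-base words of *Spp1* but had at most 8.07 counts in any library. Among 10 tested receptors and integrins for osteopontin, 0 were called, and 1 was higher and 1 lower in Thra1PV/+ at an unadjusted p under 0.05. *Cd44* had 58.3 to 136 CPM in Thra1PV/+ and 11.6 to 60.8 CPM in WT libraries, with a log2 fold change of 1.29 ± 0.47 (SE, edgeR's quasi-likelihood test, adjusted p = 0.413), and *Itgb1* had a log2 fold change of -0.58 (SE 0.23) and an adjusted p of 0.453 in that test.

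Across the gland genes, 1 WT library carried much of the signal. WT library 2 had the highest level of 7 of the 10 genes, namely *Spink1*, *Prss28*, *Cxcl15*, *Ttr*, *Calca*, *Stc1* and *Wfdc3*. Among the 5 tested members it was the highest for 3, and it was the highest for 14.6% of all tested genes, for 3 of 7 markers of luminal epithelium and for 4 of 7 markers of NK cells. It exceeded 3 times the next WT library for 0 of these 5, against 1.69% of all tested genes, and did so for *Spink1*, *Ttr* and *Calca* among the genes with too few counts to test. It held 56.8% of the WT counts of *Cxcl15*, 55.6% of those of *Wfdc3* and 51.8% of those of *Stc1*. *Foxa2* did not stand apart there, with 32.9% of the WT counts, and *Spp1* was low, with 8.05%. Leaving that library out moved the log2 fold change to 0.06 for *Cxcl15*, -0.88 for *Wfdc3* and 0.58 for *Stc1*.

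**Figure D4:**
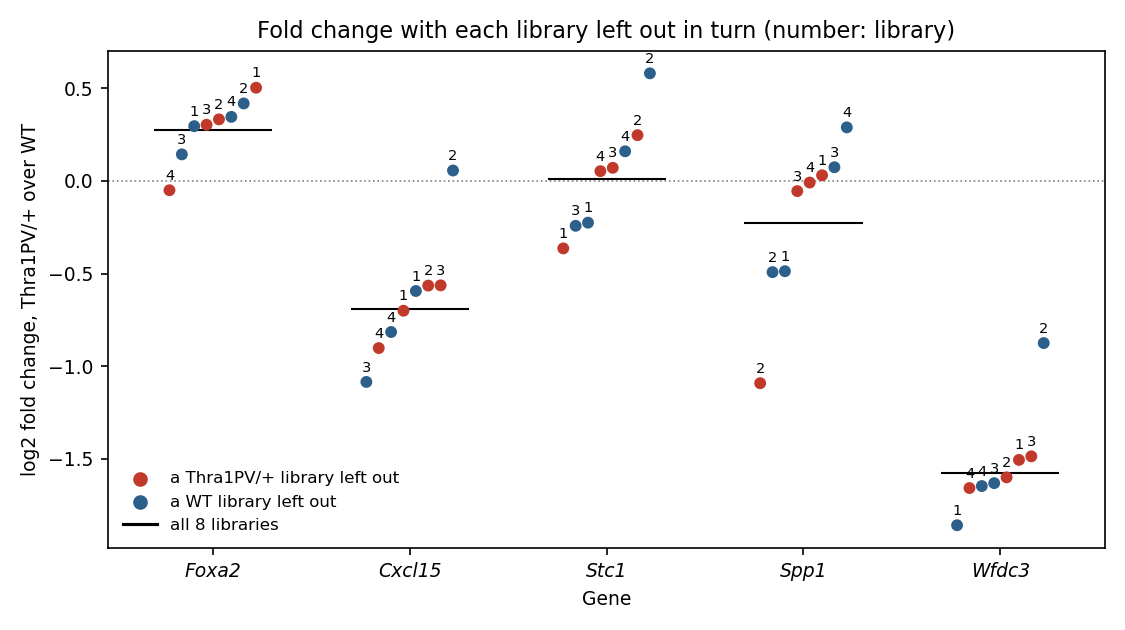
Log2 fold change of Thra1PV/+ over WT endometrium for the 5 tested gland genes with each library left out in turn (points, with the number of the library left out) and with all 8 libraries (line). *Cxcl15* lies at 0.06 and *Wfdc3* at -0.88 without WT library 2, and *Spp1* lies at -1.09 without Thra1PV/+ library 2.

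The genes listed as other secreted products of the uterine epithelium took a different order from the gland genes that were highest in WT library 2. This list of 14 holds estrogen-responsive proteins such as lactoferrin (*Ltf*), lipocalin (*Lcn2*) and complement C3, and the cytokine LIF. It also holds the intracellular enzyme *Aldh1a1* and the membrane proteins *Muc1* and *Pigr*, for which the name of the list is loose. Of the 14, 0 were called and 0 had an unadjusted p under 0.05, with a median log2 fold change of -0.19. WT library 2 was the lowest of all 8 libraries for 11 of the 14, whereas it was the lowest for 13.4% of all tested genes. *Ltf*, the most abundant, had 4534, 9800, 11264 and 8482 CPM in Thra1PV/+ libraries 1 to 4 and 2853, 1290, 16021 and 12221 CPM in WT libraries 1 to 4. *Lif*, the gland cytokine that FOXA2 is required for, had 2.64, 84.3, 25.6 and 11.2 CPM in Thra1PV/+ libraries 1 to 4 and 19.1, 2.49, 18.9 and 67.7 CPM in WT libraries 1 to 4. For both genes WT library 2 was thus at the bottom, and Thra1PV/+ library 1 was the lowest of its genotype. The gland gene *Spp1* was also lowest in WT library 2, at 28.5 CPM. The signalling receptor *Il6st*, through which LIF acts, had 274 ± 41.8 CPM in Thra1PV/+ and 492 ± 91.9 CPM in WT endometrium (SD, n = 4) with no overlap, a log2 fold change of -0.84 ± 0.18 (SE, edgeR's quasi-likelihood test, adjusted p = 0.122), which did not meet either limit of a call.

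**Figure D5:**
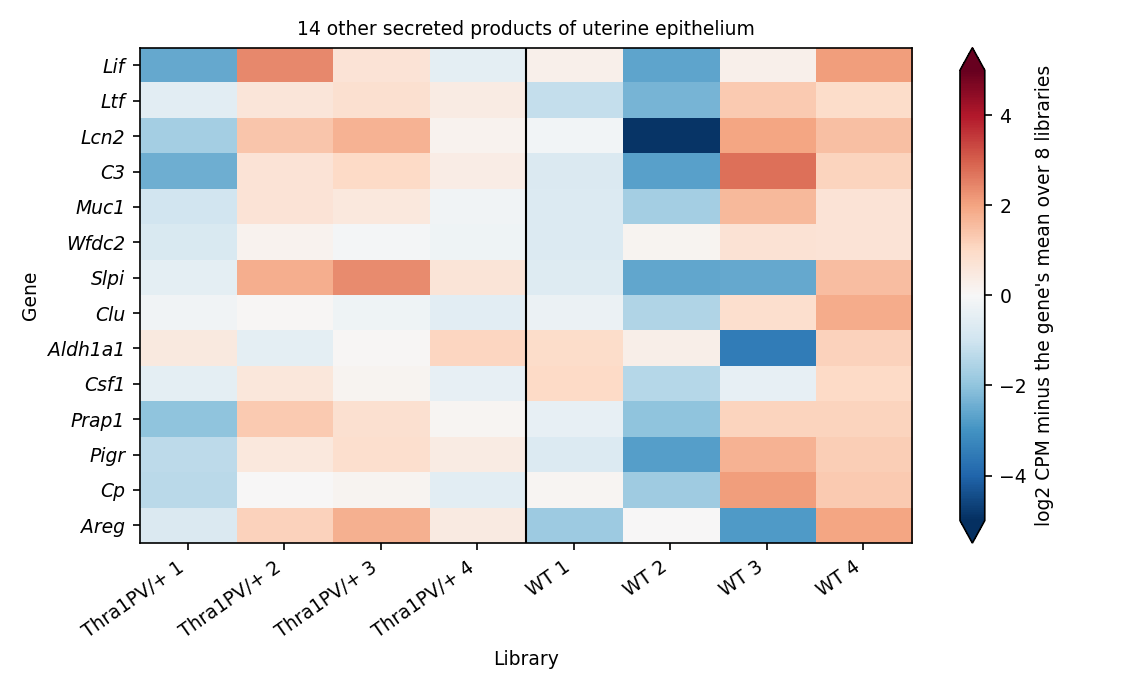
Log2 CPM of 14 genes listed as other secreted products of the uterine epithelium (rows) in the 8 libraries (columns). The mean of each gene over the libraries is subtracted. WT library 2 is the lowest for 11 of the 14.

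Scaled to the simple epithelium markers of each library, the other tested gland genes also overlapped between the genotypes. *Cxcl15* had 7.99 ± 4.99 CPM per 1000 CPM of those markers in Thra1PV/+ and 16.2 ± 16.3 in WT endometrium. *Spp1* had 16.2 ± 11.3 and 16.7 ± 8.66, and *Stc1* had 3.004 ± 3.03 and 2.76 ± 2.64, on the same scale (SD, n = 4). *Wfdc3* had 0.195 ± 0.0888 in Thra1PV/+ and 0.615 ± 0.674 in WT endometrium, and WT library 2 alone had 1.62. Squamous markers were higher in Thra1PV/+, and the part of squamous cells in the simple epithelium markers was not tested for these genes either.

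The tested gland genes did not share 1 pattern over the 8 libraries. Between their 10 pairs the Pearson correlation of log2 CPM ran from -0.53, for *Cxcl15* and *Spp1*, to 0.56, for *Foxa2* and *Cxcl15*, as a description of libraries that share cell makeup and depth. Of 12132 genes searched, those most like *Foxa2* were *Fiz1* (r = 0.94, Spearman's rho 0.83), *0610010K14Rik* (0.92, 0.93), *Ppp1r37* (0.91, 0.79), *Bud13* (0.91, 0.93) and *Comtd1* (0.89, 0.98). Those most like *Spp1*, the most abundant other gland gene, were *Sart3* (r = 0.97, rho 0.83), *Sowahc* (0.97, 0.88), *Rel* (0.95, 0.98), *Ergic2* (0.95, 0.88) and *Dot1l* (0.95, 0.93). None of these 10 genes is itself a gland gene of the list, and with 8 libraries the highest of so many correlations is high by selection.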

How the data were processed

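Libraries of endometrium, captured by laser from frozen sections of 4 WT and 4 Thra1PV/+ uteri, were grouped by their titles. The authors made stranded, paired-end mRNA libraries, trimmed reads with Trimmomatic and deposited estimated counts per gene from salmon (mouse genome mm10), without normalization. Versions and the annotation release are not given in the sources used here. The authors also deposited TPM values, whose sorted values differ by at most 0.291 TPM between libraries at any rank, the form quantile normalization gives. There, 1 column with values below 0 matched no sample and was not used. Nothing in the labels says that libraries of 1 genotype came from separate litters or capture sessions, so p-values measure only the spread between these libraries.

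Estimated counts were rounded. Genes that passed filterByExpr (minimum count 10, minimum total 15), 18174 of 52325, were scaled by TMM factors and compared by edgeR 4.0.16 (quasi-likelihood, genotype only, R 4.3.3), with Benjamini-Hochberg adjustment over all tested genes. The call thresholds are those of the study. The SE of a log2 fold change is its size divided by the square root of F, and log2 CPM used a prior count of 2. Library totals were 48791883 to 59819099, and identifiers without a symbol held at most 0.00897% of a library. The floor of 3 counts covers counting error only. Positions are from GENCODE M21 (GRCm38), in which 6 of the 10 gland genes have the same identifier version, and promoters from RefSeq, found for 7 of them outside chromosome 18. Sequences of chromosome 18 are not reported here. The tests were checked on simulated data.

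The gland genes, the other gene lists and the tests were chosen with earlier results of these data known, the lists from general knowledge. Genes named from a list are its called members, or else the one with the smallest p and the most abundant one. Further members were named because an alternative called them, and *Lif* was added after its values were seen. *Ly6g*, *Cd68*, *Cpb1* and the other members set beside them were also named outside this rule. The genes most like a member are the 5 with the highest Pearson r among tested genes whose log2 CPM averaged 2 or more. Alternatives were DESeq2 1.42.0, 3 other normalizations, 2 other filters, replicate number as a block, limma 3.58.1 on log2 of the deposited TPM with a pseudocount of 1 or 0.1, other thresholds, and each library left out in turn.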

Additional observations from a re-analysis of the deposited data

Results flagged for a closer look

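In each genotype, a gland gene was looked at again where the highest or lowest of its 4 libraries stood far from the others (Dixon's test on log2 CPM at its 95% critical value). This held for 6 of 20 groups. Chance gives about 1, but only for values without ties. Of the 6, 5 concern genes with few counts, for which most libraries share the value that 0 counts give, so the 6 cannot be set against that number. *Spink1* stood apart in Thra1PV/+ library 1, at a log2 CPM of -2.94 from 5 counts, and in WT library 2, at -0.00657 from 53 counts. *Prss28* stood apart in Thra1PV/+ library 4, at -3.77 from 2 counts, and in WT library 2, at -2.60 from 7 counts. *Prss29* stood apart in WT library 2, at -3.74 from 2 counts.

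The remaining case rests on many reads. *Spp1* in Thra1PV/+ library 2 had a log2 CPM of 7.63, from 9790 estimated counts, while the other Thra1PV/+ libraries lay between 5.41 and 5.70. The same library had the highest sum of neutrophil markers, 673 CPM, and the lowest sum of macrophage markers, 222 CPM, and their part in the level of *Spp1* was not tested.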

How the results depend on the processing

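The number of gland genes called was 0 under each alternative with the call thresholds, and 1 (*Wfdc3*) at an unadjusted p under 0.05 with no fold threshold. Over all genes, 180 were called, against 791 by DESeq2, 81 with at least 10 counts required in every library, 82 with the replicate number as a block, 119 at an adjusted p of 0.05 and 1775 at an unadjusted p under 0.05. With 1 library left out the number ran from 81 to 167, and it was 81 without Thra1PV/+ library 3, 116 without Thra1PV/+ library 2 and 114 without WT library 4. Same-numbered libraries did not deviate together in every pair (correlations 0.27, -0.44, 0.34 and -0.16), so the block rests on a shared number only. With it, *Rbp4* was called (adjusted p = 0.0893).

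The direction of 4 genes depended on the setting, and the cause was not tested. *Cxcl15* turned from -0.69 to 0.21 with the block and to 0.38 and 0.85 by limma on log2 TPM with a pseudocount of 1 and 0.1, and *Spp1* from -0.23 to 0.016 and 0.021 with these pseudocounts. With 1 library left out, *Cxcl15* ran from -1.09 to 0.057, *Spp1* from -1.09 to 0.29, *Foxa2* from -0.050 to 0.50 and *Stc1* from -0.36 to 0.58. The sign turned without WT library 2 for *Cxcl15*, Thra1PV/+ library 1 or WT library 3 or 4 for *Spp1*, Thra1PV/+ library 4 for *Foxa2*, and Thra1PV/+ library 1 or WT library 1 or 3 for *Stc1*. *Wfdc3* was lower under the 17 alternatives, from -1.86 to -0.88, with unadjusted p between 0.00281 and 0.126 and adjusted p between 0.172 and 0.803. *Prss28* and *Prss29*, with at most 10 counts in a library, were too low for a difference to be detected at this depth.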
